A study of Striga hermonthica with 6 samples.

Results

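Of the 68 loci that ShortStack marked as *MIRNA* in *Striga hermonthica*, 6 lie within 10000 nt of another *MIRNA* locus on the same contig and form 3 pairs. Among the loci so marked, they were chosen by their coordinates. ShortStack sets the mark from aligned small RNA reads, so the choice is not independent of the reads. The gaps within the pairs are 174, 1347 and 2126 nt, and the next smallest distance between 2 *MIRNA* loci of a contig is 37727 nt (Cluster_15789 and Cluster_15796), so no locus lies near the limit. *S. hermonthica* is a parasitic plant that feeds on cereal roots through the haustorium, the organ that joins it to the host. Small RNA was sequenced from leaf at stage 6 (2 libraries), from haustorium at stage 6 (2 libraries) and from haustorium with no stage in the labels (2 libraries, numbered 1 and 3). All plants were of the kibos ecotype and grew on KitaakeX rice for 45 days at 30 °C with 16 hours of light. The stage is not defined. Whether replicates came from different plants is not said, and each p-value therefore reflects a spread among libraries that may be only technical.

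A plant *MIRNA* is transcribed by RNA polymerase II into a primary transcript with a hairpin, and a Dicer-Like enzyme releases the miRNA/miRNA* duplex from the hairpin stem. Most plant *MIRNA* loci stand alone between protein-coding genes, but some lie in tandem. Neighbouring hairpins can come from a shared primary transcript or from separate promoters, and tandem copies often make identical or nearly identical miRNAs. Read counts per locus do not show which of these applies, and the loci of the 3 pairs are matched here to no miRNA family. The labelled tissues could not be checked against defining markers, because the loci carry no gene or family names.

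The closest pair, Cluster_24065 and Cluster_24066, lies on contig CACSLK010034598.1 of the SHERM assembly from 14098330 to 14098447 and from 14098622 to 14098806. These loci are 118 and 185 nt long. The second pair, Cluster_12332 and Cluster_12333, lies on contig CACSLK010026072.1 from 5832974 to 5833100 and from 5834448 to 5834574, and both loci are 127 nt long. The third pair, Cluster_19813 and Cluster_19814, spans 5401483 to 5401601 (119 nt) and 5403728 to 5403850 (123 nt) of contig CACSLK010030184.1. No other small RNA locus lies between the loci of any pair, and no annotated gene overlaps a pair or the gap within it. The nearest genes are SHERM_08013, 22370 nt before, and SHERM_08014, 7620 nt after the first pair. For the second pair they are SHERM_22158 at 9486 nt and SHERM_22159 at 19084 nt, and for the third pair SHERM_03503 at 3229 nt and SHERM_03504 at 4442 nt. The table of genes gives these no names or functions.

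The 3 pairs sit at different levels of abundance. Cluster_19813 and Cluster_19814 rank 2 and 3 among the 68 *MIRNA* loci by mean CPM (reads per 1000000 counted reads of a library). Cluster_12332 and Cluster_12333 rank 33 and 35, and Cluster_24066 and Cluster_24065 rank 58 and 68, so that the least abundant *MIRNA* locus of all is in the closest pair. Of all reads at *MIRNA* loci, the 6 loci together took 12.4% to 22.0%, depending on the library. All 6 had at least 10 reads in every library, as had 58 of the 68 *MIRNA* loci. Counted reads per library ranged from 3031863 to 8381235. Leaf replicate 1 and stage 6 haustorium replicate 2 stood apart, with TMM factors (the scaling that edgeR applies beyond the total) of 1.74 and 1.78, against 0.609 to 0.979 elsewhere. A ratio of 2 loci within a library does not depend on this scaling.

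Cluster_24065 had 70 and 55 reads in leaf, 30 and 31 in stage 6 haustorium, and 25 and 15 in haustorium without a stage. In CPM that is 9.53 and 6.60, then 9.89 and 4.46, then 2.98 and 2.21. Its partner Cluster_24066 had 218 and 55 reads in leaf, 57 and 100 in stage 6 haustorium, and 80 and 12 in haustorium without a stage, or 29.7 and 6.60, 18.8 and 14.4, and 9.55 and 1.77 CPM. On library totals, both loci were lowest in haustorium replicate 3. The counts there are small enough for the 95% Wilson intervals of the loci (1.34 to 3.64 and 1.01 to 3.09 CPM) to overlap. On TMM-scaled library sizes Cluster_24066 was still lowest there, at 2.90 CPM. Cluster_24065 was then lowest in stage 6 haustorium replicate 2, at 2.51 CPM against 3.63 CPM in haustorium replicate 3. Leaf and haustorium overlapped at both loci.

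Cluster_12332 had 978 and 683 reads in leaf, 132 and 950 in stage 6 haustorium, and 281 and 187 in haustorium without a stage. In CPM that is 133.1 and 82.0, then 43.5 and 136.6, then 33.5 and 27.5. Cluster_12333 had 896 and 840 reads in leaf, 409 and 254 in stage 6 haustorium, and 183 and 104 in haustorium without a stage, or 121.9 and 100.8, 134.9 and 36.5, and 21.8 and 15.3 CPM. The stage 6 haustorium libraries thus ranked the loci in opposite order, Cluster_12333 being high in replicate 1 and Cluster_12332 in replicate 2. Summed over both loci, the same 2 libraries had 178.4 and 173.2 CPM on library totals, but 213.7 and 97.5 CPM on TMM-scaled library sizes.

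Cluster_19813 had 14554 and 4710 reads in leaf, 5045 and 8222 in stage 6 haustorium, and 7807 and 4405 in haustorium without a stage. In CPM that is 1981 and 565, then 1664 and 1183, then 931 and 649. Cluster_19814 had 7471 and 5022 reads in leaf, 3102 and 8832 in stage 6 haustorium, and 3014 and 1466 in haustorium without a stage, or 1017 and 603, 1023 and 1270, and 360 and 216 CPM. On library totals, the leaf libraries of Cluster_19813 were its highest and its lowest of all 6. On TMM-scaled library sizes its highest and lowest were the stage 6 haustorium libraries, at 1992 and 666 CPM, with leaf at 1138 and 870 CPM. At Cluster_19814 both leaf libraries lay above both haustorium libraries without a stage in CPM. The same held at Cluster_12332, Cluster_12333 and Cluster_24065, but not at Cluster_19813 or Cluster_24066. The share of all loci with this order was not computed, so it is not read as a trait of these loci.

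**Figure D1:**
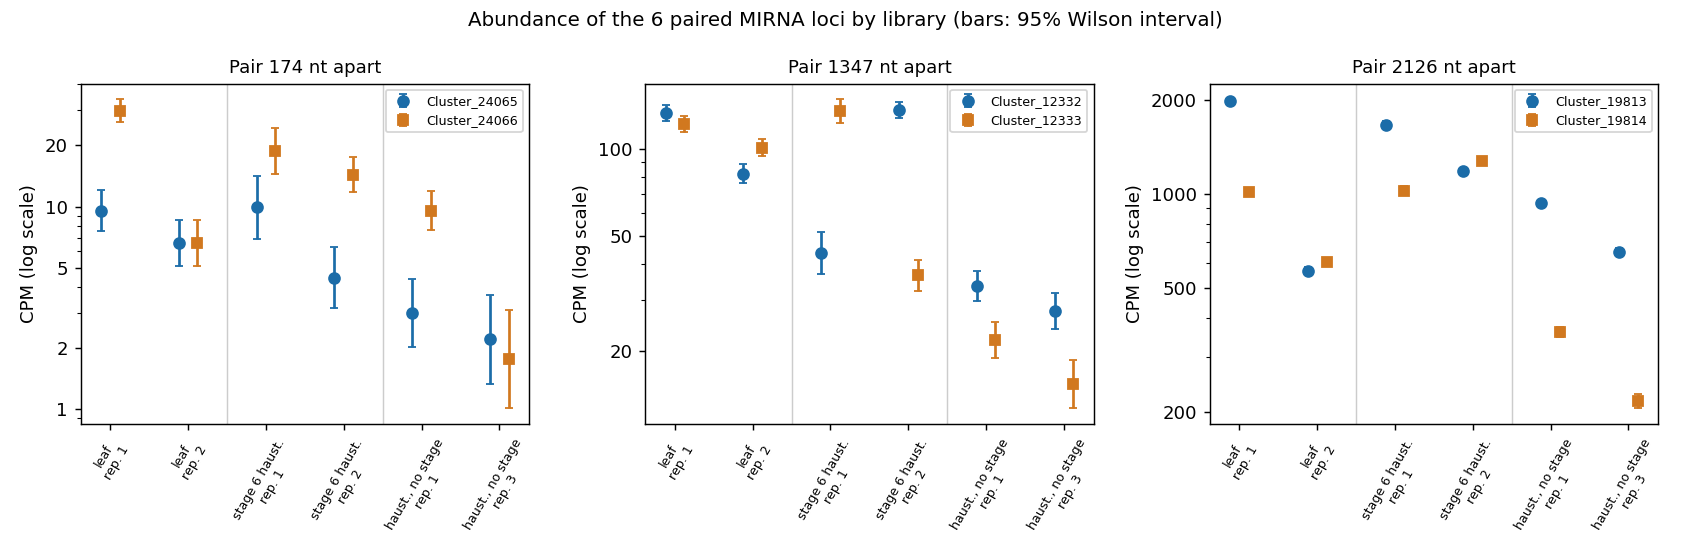
CPM on a log scale (vertical axis) of the 2 loci of each pair in the 6 libraries, with 95% Wilson intervals that cover counting error only. Circles are the locus with the lower start and squares its partner. At all 6 loci both haustorium libraries without a stage lie below both stage 6 haustorium libraries, as at 25.7% of all loci and 48.5% of the *MIRNA* loci. On TMM-scaled library sizes this is so at 2 of the 6, against 17.9% of all loci.

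The split of reads within a pair was compared between libraries by the ratio of the locus with the lower start to its partner. For Cluster_24065 over Cluster_24066 the ratio of reads was 0.321 and 1.00 in leaf, 0.526 and 0.310 in stage 6 haustorium, and 0.313 and 1.25 in haustorium without a stage. Per nt of locus these ratios run from 0.486 to 1.96. The share of the pair's reads at Cluster_24065 was thus 23.7% to 34.5% in 4 libraries, and 50.0% (95% Wilson interval 40.8 to 59.2) in leaf replicate 2 and 55.6% (37.3 to 72.4) in haustorium replicate 3. The last share rests on 27 reads. The libraries with the evenest split are not of the same tissue, and in each tissue another library of the same group had the lower share.

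For Cluster_12332 over Cluster_12333 the ratio was 1.09 and 0.813 in leaf, 0.323 and 3.74 in stage 6 haustorium, and 1.54 and 1.80 in haustorium without a stage. The highest and the lowest ratio, 11.6-fold apart, both came from stage 6 haustorium. The share at Cluster_12332 was 24.4% (95% Wilson interval 21.0 to 28.2) in its replicate 1 and 78.9% (76.5 to 81.1) in its replicate 2, so the replicates of that group differed by far more than counting error. In leaf, both shares lay near an even split, at 52.2% (49.9 to 54.4) and 44.8% (42.4 to 47.4).

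For Cluster_19813 over Cluster_19814 the ratio was 1.95 and 0.938 in leaf, 1.63 and 0.931 in stage 6 haustorium, and 2.59 and 3.00 in haustorium without a stage. Cluster_19814 held slightly more reads than its partner only in the second replicates of leaf and of stage 6 haustorium, where the share at Cluster_19813 was 48.4% (47.4 to 49.4) and 48.2% (47.5 to 49.0). Both haustorium libraries without a stage lay above the 4 stage 6 libraries, at 72.1% (71.3 to 73.0) and 75.0% (73.9 to 76.1) of the pair's reads. This was so, in either direction, for 1 of the 3 pairs and for 16.4% of the 2275 other pairs that the 68 *MIRNA* loci can form. It was noticed after the values were seen and was not tested.

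**Figure D2:**
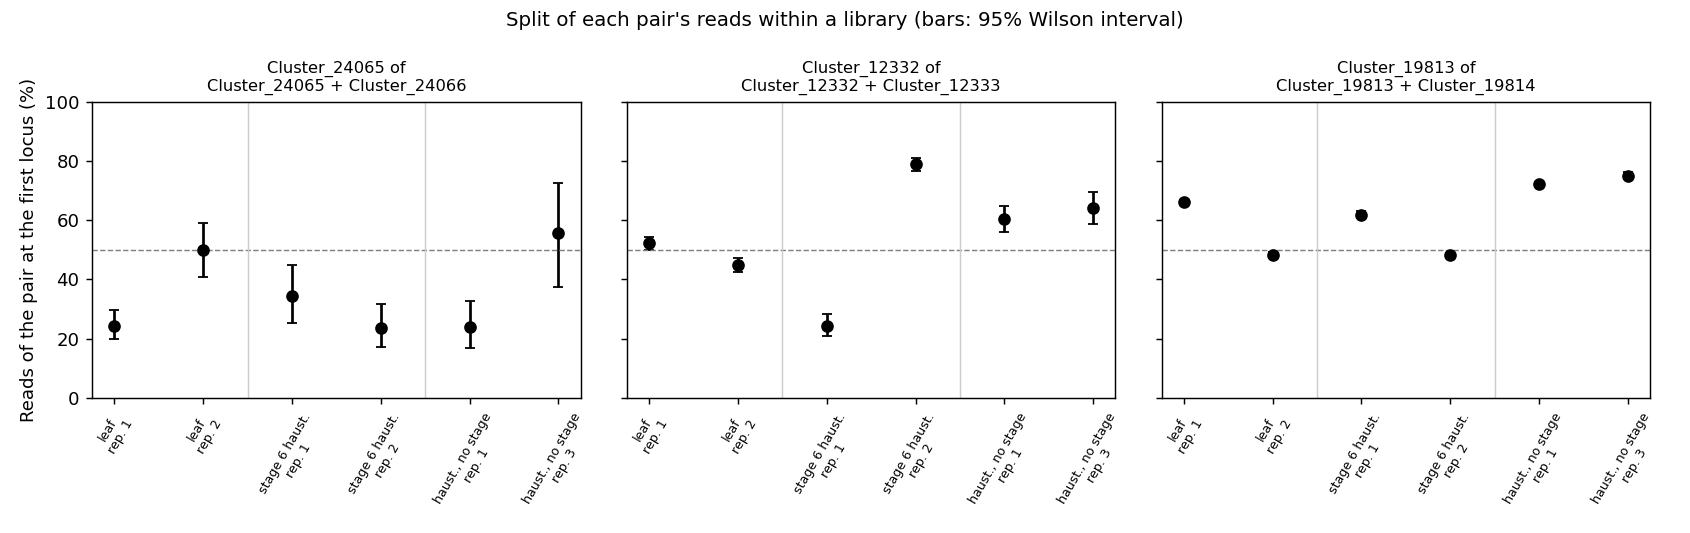
Share of a pair's reads (%, vertical axis) at the locus with the lower start in each of the 6 libraries, with 95% Wilson intervals and a dashed line at 50%. The share moved from 24.4% to 78.9% for Cluster_12332, from 48.2% to 75.0% for Cluster_19813 and from 23.7% to 55.6% for Cluster_24065.

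In all 3 pairs the ratio varied beyond counting error, with a chi-square per degree of freedom of 7.78 for Cluster_24065/Cluster_24066, 113.2 for Cluster_12332/Cluster_12333 and 621 for Cluster_19813/Cluster_19814. It did not differ between leaf and haustorium by more than the spread of the libraries. The mean log2 ratio of Cluster_12332 to Cluster_12333 was -0.09 ± 0.30 (SD, n = 2) in leaf and 0.43 ± 1.48 (SD, n = 4) in haustorium, a difference of -0.52 (two-sided exact permutation test, p = 0.667). For Cluster_19813 and Cluster_19814 it was 0.43 ± 0.75 (SD, n = 2) in leaf and 0.89 ± 0.76 (SD, n = 4) in haustorium, a difference of -0.45 (exact permutation test, p = 0.667). For Cluster_24065 and Cluster_24066 it was -0.82 ± 1.15 (SD, n = 2) in leaf and -0.98 ± 0.93 (SD, n = 4) in haustorium, a difference of 0.17 (exact permutation test, p = 0.933). Adjusted over the 3 pairs, each p was 0.933, and the 15 splits allow no p below 0.133. The sign of the difference changed without leaf replicate 2 for Cluster_19813/Cluster_19814 (0.07) and Cluster_24065/Cluster_24066 (-0.65), and for Cluster_24065/Cluster_24066 also without stage 6 haustorium replicate 2 (-0.06) or haustorium replicate 1 (-0.06). ShortStack assigns a read that matches several places equally well to a single place, by default guided by uniquely placed reads nearby. Whether the loci of a pair share such reads was not tested.

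In leaf set against the average of both haustorium groups, 5 of the 6 loci had a log2 fold change above 0 and none passed the test. The values were 0.68 (standard error 0.85) for Cluster_24065 and 0.47 (0.78) for Cluster_24066, 1.00 (0.58) for Cluster_12332 and 1.28 (0.92) for Cluster_12333, and -0.21 (0.82) for Cluster_19813 and 0.35 (0.71) for Cluster_19814. Their median of 0.58 stands beside 0.59 over the *MIRNA* loci and 0.12 over all loci tested. Of the 6 loci, edgeR called 0 at an adjusted p of 0.05 and 0 at an unadjusted p of 0.05, against 0% and 3.25% of the 24421 loci tested. DESeq2 also called 0 of the 6, against 0.83% of 24570 loci. At 0 of the 6 were both leaf libraries above every haustorium library in CPM (1.63% of all loci and 7.35% of the *MIRNA* loci), and at 0 below (2% and 0%). After TMM scaling the counts were also 0 above (4.85% of all loci) and 0 below (3.75%). Single libraries moved these values by over 1.5 times. Without leaf replicate 2 the value was 0.59 for Cluster_12332, 0.58 for Cluster_12333 and 0.16 for Cluster_24065, and without stage 6 haustorium replicate 1 it was 2.35 for Cluster_12333 and 1.42 for Cluster_24065. For Cluster_24066 it ranged from 0.05 without leaf replicate 1 to 1.04 without haustorium replicate 1. The sign changed without leaf replicate 2 for Cluster_19814 (-0.03) and without stage 6 haustorium replicate 1 for Cluster_19813 (0.29), and without both libraries that stood apart it was -0.24 for Cluster_24066. In such bulk tissue, fewer cells with a miRNA and less of it per cell cannot be told apart. Identical small RNAs of the rice host could add reads in the haustorium, which was not tested.

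Against stage 6 haustorium alone, the fold changes of leaf were small and of both signs. They were 0.14 (standard error 1.00) for Cluster_24065 and -0.16 (0.92) for Cluster_24066, 0.65 (0.70) for Cluster_12332 and 0.31 (1.10) for Cluster_12333, and -0.40 (0.94) for Cluster_19813 and -0.36 (0.83) for Cluster_19814. They had a median of -0.01 over the 6 loci, 0.50 over the *MIRNA* loci and 0.05 over all loci tested. No member was called by edgeR at an adjusted p of 0.05 (0% of all loci) or at an unadjusted p of 0.05 (2% of all loci), and DESeq2 called none either (0.472%). The sign of 5 of the 6 values, Cluster_12332 being the exception, turned without a single stage 6 library. Without leaf replicate 2 it turned at Cluster_12333 (-0.39), Cluster_24065 (-0.38) and Cluster_24066 (0.15). Without stage 6 haustorium replicate 1 it turned at Cluster_19813 (0.59), Cluster_19814 (0.08) and Cluster_24066 (0.74), and without replicate 2 at Cluster_12333 (-0.52) and Cluster_24065 (-0.60). In CPM, 1 of the 6, Cluster_19814, was lower in both leaf libraries than in both stage 6 haustorium libraries, against 8.55% of all loci and 4.41% of the *MIRNA* loci. The nearest 2 libraries, leaf replicate 1 at 1017 CPM (95% Wilson interval 994 to 1040) and stage 6 haustorium replicate 1 at 1023 CPM (988 to 1060), did not differ beyond counting error. After TMM scaling Cluster_19814 had 584 and 928 CPM in leaf and 1225 and 715 CPM in stage 6 haustorium, so the groups overlapped, and 0 of the 6 were lower (11.5% of all loci) or higher (12.4%) in both leaf libraries. In CPM on library totals, none of the 6 was higher in both leaf libraries (4.76% of all loci and 10.3% of the *MIRNA* loci).

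The 6 loci were all higher in stage 6 haustorium than in haustorium without a stage when measured in CPM, with both libraries above both. This was so for 25.7% of all loci and for 48.5% of the *MIRNA* loci, and the opposite for 8.98% of all loci, 2.94% of the *MIRNA* loci and 0 of the 6. With CPM on TMM-scaled library sizes it was so for 2 of the 6, Cluster_12332 and Cluster_19814, against 17.9% of all loci, and the opposite for 0 of the 6, against 16.9%. The log2 fold changes after TMM were 1.08 (standard error 1.02) and 1.25 (0.93) for Cluster_24065 and Cluster_24066, 0.70 (0.70) and 1.94 (1.14) for Cluster_12332 and Cluster_12333, and 0.40 (0.94) and 1.43 (0.84) for Cluster_19813 and Cluster_19814. Their median was 1.17, beside 0.36 over the *MIRNA* loci and 0.02 over all loci tested. With library totals alone in place of TMM the median of all loci moved to 0.74 and that of the 6 loci to 1.55. None was called by edgeR, either at an adjusted p of 0.05 (0% of all loci) or at an unadjusted p of 0.05 (4.39%), and DESeq2 called none of the 6 (1.56%). Without stage 6 haustorium replicate 1 the median of the 6 loci was 0.07, and Cluster_12333 (-0.20), Cluster_19813 (-0.60) and Cluster_24065 (-0.40) had the opposite sign.

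**Figure D3:**
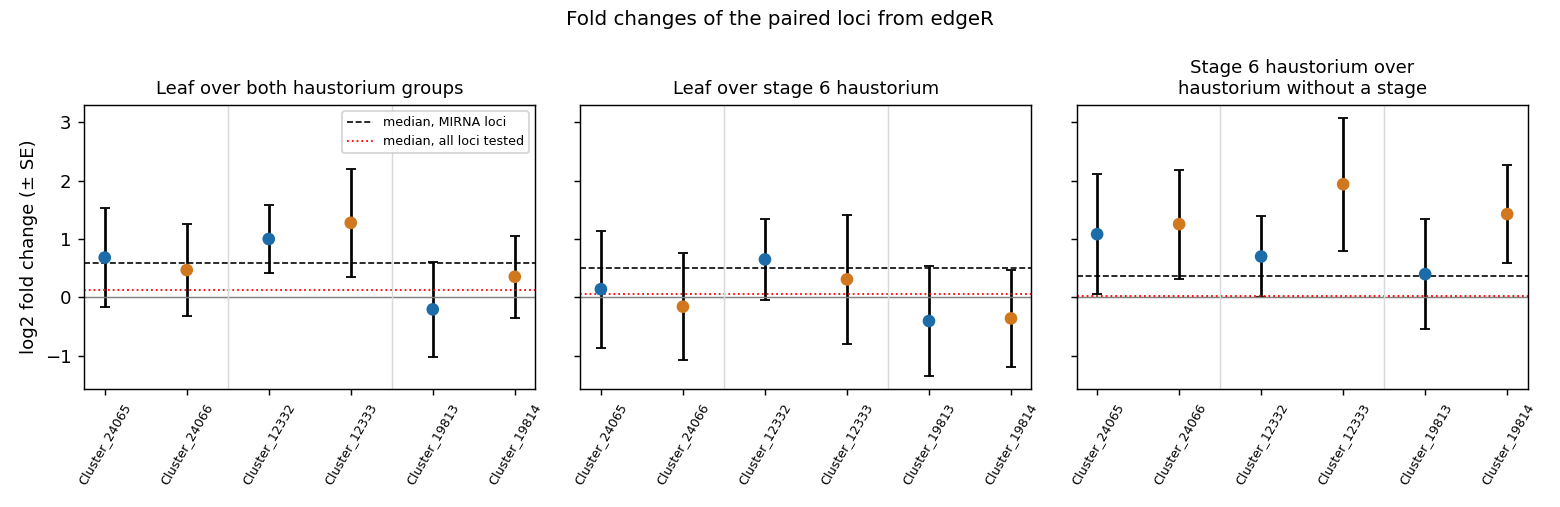
Log2 fold change from edgeR (vertical axis, with standard error) of the 6 loci in 3 comparisons, the dashed line giving the median of the *MIRNA* loci and the dotted line that of all loci tested. In the comparison of stage 6 haustorium with haustorium without a stage all 6 values are above 0, from 0.40 to 1.94, and none passed the test.

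Whether the loci of a pair move together more than other *MIRNA* loci do was read from 3 measures. In the first, the difference between the fold changes of leaf over haustorium was 0.28 for Cluster_12332 and Cluster_12333, 0.56 for Cluster_19813 and Cluster_19814 and 0.21 for Cluster_24065 and Cluster_24066 on the log2 scale. Its median over the 2275 other pairs of *MIRNA* loci was 0.75, and 21.2%, 39.6% and 16.2% of those pairs had a difference as small or smaller. All 3 neighbouring pairs were thus on the lower side of the median, but 369 to 900 of the other pairs were as close or closer. These other pairs are built from the same loci and are not independent, so no p is given. The difference for Cluster_12332 and Cluster_12333 became 1.48 when stage 6 haustorium replicate 1 was left out, and 0.0015 when leaf replicate 2 was left out instead. In the first case the median of the other pairs was 0.87, and 74.2% of them were as close or closer. In the second case the median was 1.37, and 0% of them were as close or closer. Leaving out leaf replicate 2 gave 0.0061 (0.18% of the other pairs) for Cluster_19813 and Cluster_19814 and 0.62 (24.4%) for Cluster_24065 and Cluster_24066. With library totals in place of TMM the differences were 0.45, 0.23 and 0.0017 in the order given first. Of the other pairs, 28.9%, 15.4% and 0.044% were then as close or closer, and their median was 0.81. With leaf replicate 1 left out the differences were 1.06 for Cluster_19813 and Cluster_19814 and 1.02 for Cluster_24065 and Cluster_24066, where the other pairs had a median of 1.11 and 48.0% and 46.8% of them were as close or closer. Between leaf and stage 6 haustorium the differences were 0.34, 0.045 and 0.30 for the 3 pairs in the order given first, with a median of 0.71 over the other pairs, and 25.1%, 4.18% and 22.3% of those were as close or closer. Between stage 6 haustorium and haustorium without a stage the differences were 1.24, 1.03 and 0.17, where the other pairs had a median of 1.10.

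In the second measure, the SD of the log2 ratio over all 6 libraries was 0.72 for Cluster_19813/Cluster_19814, 0.89 for Cluster_24065/Cluster_24066 and 1.19 for Cluster_12332/Cluster_12333, against a median of 1.63 over the other pairs. A ratio as steady or steadier was found in 9.49%, 17.3% and 31.3% of the other pairs. Without leaf replicate 1 these 3 shares became 16.3%, 23.5% and 44.4%. Without stage 6 haustorium replicate 1 they became 13.4%, 22.3% and 14.9%. Without both libraries that stood apart they became 21.0%, 28.3% and 40.8%. Many of the other pairs hold a locus with few reads in some library. Over the 1650 pairs whose loci both had 10 reads in every library the median was 1.29, and 13.1%, 23.8% and 43.1% were as steady or steadier. The 68 pairs of *MIRNA* loci that lie farther apart on the same contig had a median of 1.37, and 11.8%, 17.6% and 41.2% of them were as steady or steadier. Consecutive small RNA loci of any kind within 10000 nt, 2572 pairs with 10 reads in every library, were steadier, with a median of 0.84. Of these, 37.0%, 54.4% and 76.4% had a ratio as steady or steadier, in the same order of the 3 pairs.

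**Figure D4:**
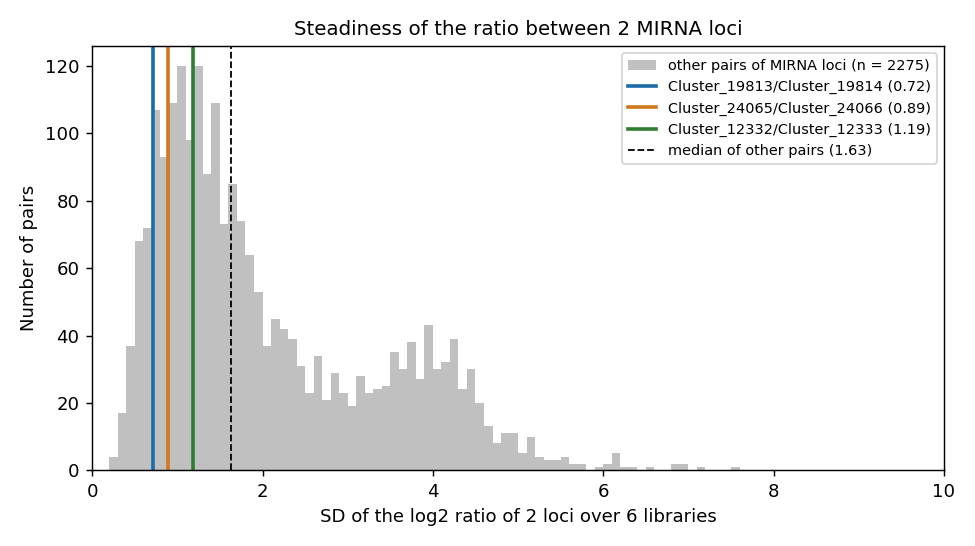
Number of pairs of *MIRNA* loci (vertical axis) by the SD of their log2 ratio over the 6 libraries, for the 2275 pairs that are not close neighbours, with coloured lines at the 3 neighbouring pairs. The neighbouring pairs, at 0.72, 0.89 and 1.19, lie below the median of 1.63 (dashed). Of the other pairs, 9.49%, 17.3% and 31.3% lie at or below these values, and the lower quartile is 1.04.

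In the third measure, the log2 CPM of the 2 loci was correlated over the 6 libraries for each of the 3 pairs. Pearson's r was 0.792 for Cluster_24065 and Cluster_24066 (exact permutation p = 0.0486, 0.146 adjusted over 3 pairs), with Spearman's rho at 0.771 (exact permutation p = 0.103, 0.308 adjusted). For Cluster_19813 and Cluster_19814 r was 0.700 (exact permutation p = 0.129, 0.194 adjusted) and rho 0.600 (exact permutation p = 0.242, 0.356 adjusted). For Cluster_12332 and Cluster_12333 r was 0.530 (exact permutation p = 0.240, 0.240 adjusted) and rho 0.486 (exact permutation p = 0.356, 0.356 adjusted). None passed after adjustment. With leaf replicate 2 left out, r for Cluster_24065 and Cluster_24066 was 0.865 over 5 libraries (exact permutation p = 0.0167, 0.050 adjusted), which is at the threshold. Without the 2 libraries farthest from the median of the first locus, r was 0.515, 0.883 and 0.774 (exact permutation p = 0.542, 0.125 and 0.208). For Cluster_19813 and Cluster_19814 the libraries left out were both leaf libraries, so the 0.883 describes haustorium only. All loci of a library share its composition, and with CPM on TMM-scaled library sizes r was 0.576, 0.368 and 0.524. The median r over the other pairs was 0.31, or 0.23 after TMM scaling. Of them, 10.6%, 19.0% and 33.7% had an r at least as high as these pairs (22.5%, 40.0% and 26.5% after TMM scaling). The median was 0.42 over the other pairs with 10 reads in every library and 0.45 over *MIRNA* loci farther apart on 1 contig. Over consecutive loci of any kind within 10000 nt, with 10 reads in every library, it was 0.65. The r of Cluster_12332 and Cluster_12333 was below that value.

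For no member was its neighbour among the 3 *MIRNA* loci with the steadiest ratio to it over the 6 libraries. Ranked among the 67 other *MIRNA* loci, Cluster_24065 came in place 10 for Cluster_24066, and Cluster_24066 in place 27 for Cluster_24065. Cluster_19813 and Cluster_19814 were each in place 14 for the other, Cluster_12332 was in place 24 for Cluster_12333, and Cluster_12333 in place 34 for Cluster_12332. The loci most like Cluster_24065 were Cluster_1694 (SD of the log2 ratio 0.21), Cluster_14674 (0.30) and Cluster_5250 (0.34). Those most like Cluster_24066 were Cluster_20125 (0.39), Cluster_22608 (0.49) and Cluster_21530 (0.71). Cluster_1694 is the most abundant *MIRNA* locus, so the least abundant member followed a locus with a mean of 1709 CPM more closely than its neighbour.

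Those most like Cluster_12332 were Cluster_13254 (0.36), Cluster_24379 (0.41) and Cluster_7662 (0.41). For Cluster_12333 they were Cluster_24065 (0.51), a member of another pair on another contig, Cluster_21530 (0.54) and Cluster_20958 (0.64). For Cluster_19813 they were Cluster_15789 (0.38), Cluster_22608 (0.48) and Cluster_14674 (0.51), and for Cluster_19814 Cluster_5865 (0.42), Cluster_24379 (0.45) and Cluster_13254 (0.47). None of these loci shares a contig with the locus it resembles. They are the best of 67 loci in each case, so their small SDs are partly fixed by the choice.

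The small RNA loci directly beside the pairs, none of them marked as *MIRNA*, were compared with the summed reads of each pair. For the log2 ratio of the summed reads of Cluster_24065 and Cluster_24066 to those of the flanking locus, Cluster_24064 (3050 nt before) had an SD of 0.68. Cluster_24067 (7073 nt after) had 0.58, beside 0.89 within the pair. Around Cluster_19813 and Cluster_19814 the values were 1.21 for Cluster_19812 (2146 nt before) and 0.69 for Cluster_19815 (1042 nt after), beside 0.72 within the pair. Around Cluster_12332 and Cluster_12333 they were 0.80 for Cluster_12331 (46573 nt before) and 1.27 for Cluster_12334 (305 nt after), beside 1.19 within the pair. Of these 6 flanking loci, Cluster_24064 had 301 reads or more in every library, and the lowest count of the others was between 4 and 25 reads, so that counting error adds to their SDs.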

How the data were processed

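Small RNA loci of *S. hermonthica* were found by the authors in the SHERM assembly with ShortStack 4.0.4, whose defaults were kept. For each of 6 libraries they deposited a table of loci with coordinates, a *MIRNA* mark and the unnormalised read count. CPM was computed on the counted reads of a library, and log2 values used a pseudocount of 0.5 reads. Groups were compared over all 25056 loci by the quasi-likelihood test of edgeR 4.0.16 (R 4.3.3, TMM, filterByExpr, Benjamini-Hochberg adjustment, threshold 0.05). In data simulated for leaf against haustorium with a biological coefficient of variation of 0.2, edgeR called 197 of 200 loci changed 4-fold. In the libraries themselves the common coefficient was 1.00, so this tests the code and not the power of the design. Alternatives were DESeq2 1.42.0, other scalings, no filter, a pseudocount of 2 reads, a block for replicate number, and omission of single libraries. Members, lists and tests were chosen with earlier results of these data known. Named loci were the 6 members, the 3 *MIRNA* loci with the steadiest ratio to each, and the loci and genes beside each pair. Gene positions came from a table of 29520 genes of the SHERM assembly. Wilson intervals hold counting error alone, as reads are not independent molecules after PCR. Python 3.11.15, numpy 2.4.6, pandas 2.3.3, scipy 1.17.1 and matplotlib 3.10.9 were used. No genome sequence was used here, so no locus sequence is shown.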

Additional observations from a re-analysis of the deposited data

Results flagged for a closer look

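Cluster_12332 had 136.6 CPM in stage 6 haustorium replicate 2, against 27.5 to 43.5 CPM in the other 3 haustorium libraries. The gap to the nearest of them was 0.853 of the whole range of the 4, above Dixon's 95% critical value. On TMM-scaled library sizes stage 6 haustorium replicate 2 had 76.9 CPM, against 34.2 to 52.1 CPM in the other 3. The gap on that scale was smaller and was not tested, so the mark holds for library totals only. These 4 libraries come from 2 labelled groups. Of the 9 quantities tested this way (6 loci and 3 ratios), 1 was marked, and chance marks about 1 in 20. At its neighbour Cluster_12333 the value was 0.823, below the critical value, and there the far library was stage 6 haustorium replicate 1.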

How the results depend on the processing

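No member was called in any comparison by any setting run, DESeq2 included. No difference of ratios could pass its test at 0.05, as the 6 libraries allow no p below 0.133 and fewer libraries allow none smaller. Adjusted over the 3 pairs, no correlation passed over the 6 libraries, and that of Cluster_24065/Cluster_24066 was at the threshold without leaf replicate 2 (exact permutation p = 0.0167, 0.050 adjusted). With so few libraries this is no sign of stability. The settings that left out both libraries with a TMM factor over 1.5, the crossed block, Spearman's rho, TMM-scaled CPM for sums and overlap, and the block for the differences of fold changes were chosen after seeing the data. Deviations of the stage 6 libraries numbered 1 from their group means had r = -0.155 over 24421 loci, in CPM without TMM scaling. With 2 libraries a group this is a single contrast and cannot show whether libraries of the same number belong together. The numbers were not taken as pairs. The replicate block left 1 residual degree of freedom, dropped haustorium replicate 3, and gave 0.19 for Cluster_19813 in leaf against haustorium. With the crossed block that value was 0.12 and 0 loci were called. With library totals only it was 0.26, and Cluster_24066 in leaf against stage 6 haustorium was at 0.13. Without both libraries with a TMM factor over 1.5, Cluster_24066 was at -0.24 in leaf against haustorium, and against stage 6 haustorium Cluster_12333 was at -0.064 and Cluster_24065 at -0.23. Against stage 6 haustorium only, the difference of the log2 ratio of Cluster_19813/Cluster_19814 was 0.14. All these had the opposite sign in the fits of the report, and the causes were not tested. Under the replicate block the difference of the fold changes of Cluster_12332 and Cluster_12333 was 1.02, against 0.28 without it.

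Leaving out each library in turn gave these ranges. The difference of the log2 ratio was -1.21 to -0.03 for Cluster_12332/Cluster_12333, -0.98 to 0.072 for Cluster_19813/Cluster_19814 and -0.65 to 0.98 for Cluster_24065/Cluster_24066. The difference of the fold changes was 0.0015 to 1.48, 0.0061 to 1.06 and 0.13 to 1.02 for these pairs, the SD of the log2 ratio 0.83 to 1.33, 0.65 to 0.80 and 0.73 to 1.00, and r 0.26 to 0.78, 0.60 to 0.86 and 0.57 to 0.87. Log2 fold changes of leaf over haustorium were 0.59 to 1.32 at Cluster_12332, 0.58 to 2.35 at Cluster_12333, -0.50 to 0.29 at Cluster_19813, -0.028 to 0.65 at Cluster_19814, 0.16 to 1.42 at Cluster_24065 and 0.046 to 1.04 at Cluster_24066. Over stage 6 haustorium they were -0.52 to 2.45 at Cluster_12333, -0.99 to 0.59 at Cluster_19813, -0.74 to 0.076 at Cluster_19814, -0.60 to 1.63 at Cluster_24065 and -0.73 to 0.74 at Cluster_24066. Those of stage 6 haustorium over haustorium were -0.20 to 2.77 at Cluster_12333, -0.60 to 0.98 at Cluster_19813 and -0.40 to 1.83 at Cluster_24065.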
